A study of Mus musculus with 137 samples.

Results

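The villus of the mouse duodenum was compared between 90 and 7 days of exposure to 180 ppm hexavalent chromium, Cr(VI), the highest of the 7 concentrations in the study. The 9 libraries were chosen by their labels alone, as all villus libraries at 180 ppm, and were 5 from day 91 and 4 from day 8, of 66 villus and 71 crypt libraries in the series. All mice were female wildtype B6C3F1 that drank Cr(VI) as sodium dichromate dihydrate ad libitum, and those on day 91 (mice 483, 484, 485, 488 and 490) were other animals than those on day 8 (mice 526, 528, 529 and 530). Age, housing time and necropsy day differed between the groups together with the length of exposure and cannot be told apart from it, and the ages themselves were not given in the sources used here. Villus and crypt were separated by hand on sections of formalin-fixed duodenum, so each library holds RNA of epithelium, lamina propria and any neighbouring tissue that stayed on the slide. TempO-Seq, an assay in which pairs of short oligomers are ligated on their target RNA and then sequenced, gave counts for 30146 probes of 21450 genes, of which 26365 probes of 19020 genes were tested.

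The small intestinal villus is covered mainly by absorptive enterocytes, which are born in the crypts, mature as they climb and are shed near the tip. Goblet cells among them secrete mucus, plasma cells in the lamina propria make the IgA that is carried into the lumen, and intraepithelial lymphocytes sit between the enterocytes. Enterocytes also carry much of the first-pass metabolism of ingested compounds through cytochrome P450 enzymes, and respond to interferons with a set of antiviral and antibacterial genes.

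At a false discovery rate of 0.1 (edgeR's quasi-likelihood test, Benjamini-Hochberg adjustment), 58 of 19020 genes were differentially expressed (DEGs), or 0.305%, with 45 higher at day 91 (0.237%) and 13 lower (0.0683%). Among the higher genes were immunoglobulin kappa segments, Herpud1 of the endoplasmic reticulum stress response, Igfbp3, Slpi, the chemokine Cxcl14 and P450 genes of the 2c and 3a families, and among the lower ones were the interferon-induced Irf1, Oasl2, Cmpk2, Parp14 and Rnf213, the epithelial sensor Nlrp6 and both mucosal pentraxins. At an unadjusted p under 0.05, 2321 genes were higher (12.2%) and 1287 lower (6.77%), and the median log2 fold change over all genes was 0.09. With DESeq2's size factors in place of TMM (trimmed mean of M-values) scaling, 31 genes were higher and 18 lower, and that median was 0. The count of DEGs depended on the tool, the filter and the groups fitted. DESeq2 itself gave 269 higher and 96 lower, and the newer quasi-likelihood form of edgeR 105 and 31. There were 83 and 24 where probes needed a mean count of at least 10. Fitting only the groups of the contrast gave 8 and 5.

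For 38 of the 58 DEGs, 30 higher and 8 lower, the CPM (counts scaled to a common library total) of the 2 groups did not overlap, against 421 genes (2.21%) of all those tested. Of the DEGs, 46 reached a mean of 10 CPM in the higher group, and 34 of these were higher and 12 lower. Of the higher genes, 12 had no count in any day 8 library, and Dtx3 was the one of these that reached 10 CPM. The 11 DEGs Cxcl14, Dtx3, Herpud1, Igfbp3, Igkv8-28, Igkv8-30, Irf1, Mptx1, Nlrp6, Parp14 and Slpi were called in all 9 alternative fits that kept the 9 libraries, and 12 were called whichever 1 of the 9 libraries was left out. Both held for 8 genes, namely Cxcl14, Dtx3, Herpud1, Igfbp3, Igkv8-28, Igkv8-30, Mptx1 and Nlrp6.

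**Figure D1:**
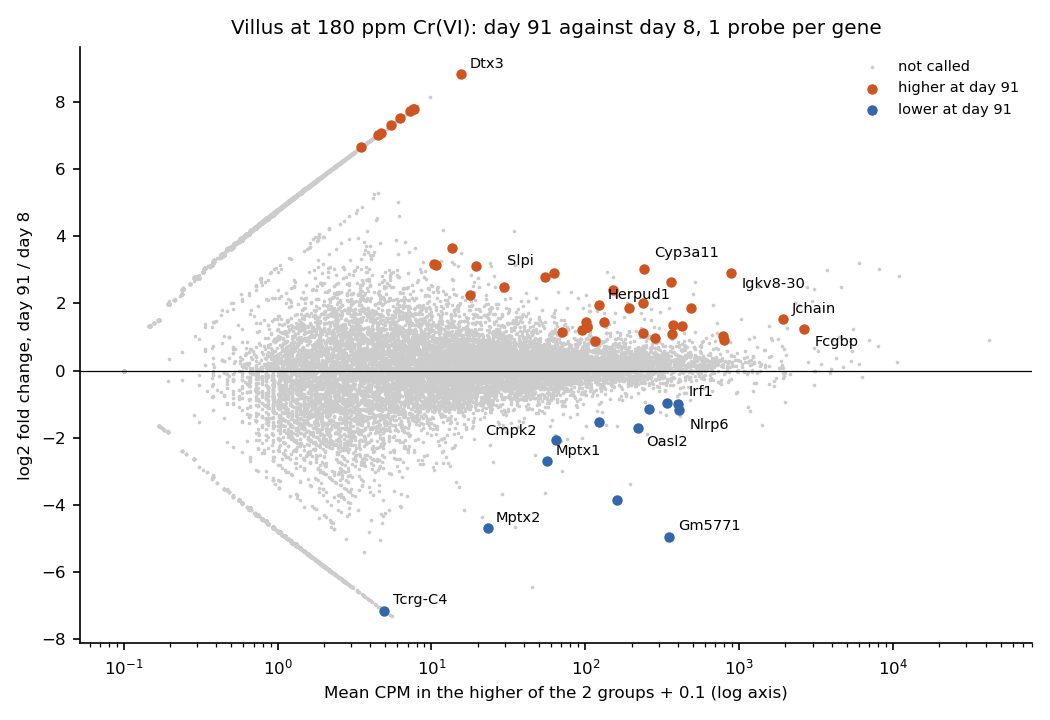
Log2 fold change of day 91 against day 8 in the villus at 180 ppm (vertical axis), with 1 probe per gene. The horizontal axis is the mean CPM of the group with the higher mean, with a small offset (log axis). Coloured points are the 53 DEGs called by the plotted probe, and the other 5 were called by another probe. Most genes lie near 0, and the DEGs with the largest fitted changes are genes of low level without a count in 1 of the groups.

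Total counts were 3030885 to 4574064 in the day 91 libraries and 2589836 to 3493637 on day 8, with 15157 to 18947 and 14035 to 16713 probes detected, in a series whose totals ran from 1463938 to 7199801. Pairs of the 9 libraries had Pearson correlations of log2 CPM from 0.655 to 0.897 over 9430 probes, which is a description across probes of libraries that differ in depth. The villus markers Vil1 and Klf4 were present in every library, Vil1 at 4592 to 6885 CPM on day 91 and 5269 to 7313 CPM on day 8. Transcripts of the exocrine pancreas, which lies against the duodenum, stood apart in 2 libraries: the 17 acinar markers summed to 62849 CPM in mouse 484 and 113500 CPM in mouse 485, against 2772 to 6259 CPM in the other 3 of day 91. On day 8 these sums were 17605, 14879, 3432 and 1550 CPM for mice 526, 528, 529 and 530. Of the 17 markers, Zg16 is also in the goblet list below. It made up most of the low sums, at 3967, 2677 and 4244 CPM in mice 483, 488 and 490. In mice 529 and 530 it had 2312 and 1396 CPM, and in mice 484 and 485 it had 6257 and 5189 CPM. Counts of DEGs without mice 484 and 485 were 48 higher and 7 lower, and 33 of the 58 DEGs were among them.

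**Figure D2:**
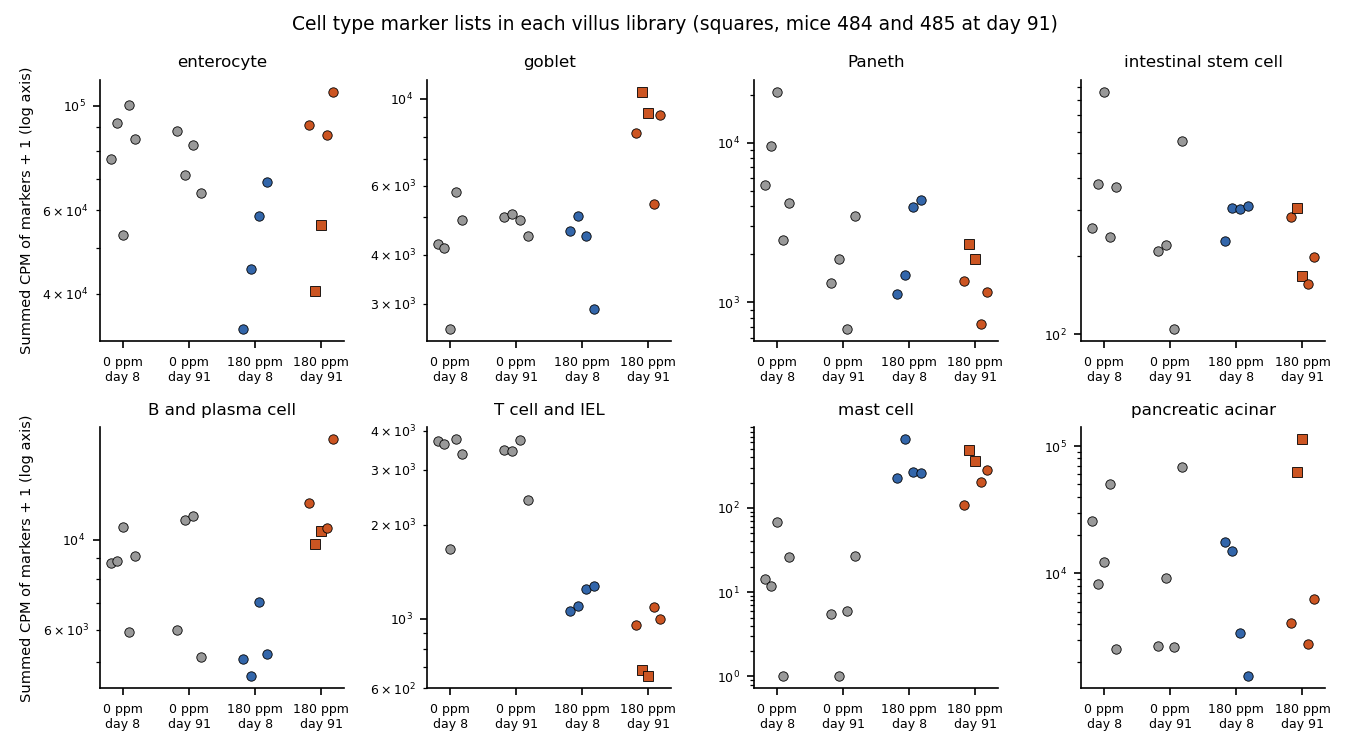
Summed CPM of 8 lists of cell type markers (log axis) in each villus library at 0 and 180 ppm on days 8 and 91, where each point is 1 library. Goblet and plasma cell markers at 180 ppm are higher in each day 91 library than in each day 8 library. Pancreatic acinar markers range from 2772 to 113500 CPM on day 91, and Zg16 is in both this list and the goblet list.

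Most interferon-stimulated genes had lower values at day 91, and few passed the test. Of 35 tested, 27 had a negative log2 fold change and 10 were lower at an unadjusted p under 0.05 against 1 higher, with a median of -0.66 against 0.09 for all genes, and 2 were DEGs, Irf1 and Oasl2. Cmpk2, Parp14 and Rnf213, DEGs outside the list, are also known to be induced by interferon. Promoters of this family often hold the GAAA repeat, 2 copies of GAAA with 2 bases between them, bound by interferon regulatory factors. The promoters of Isg15 and Ifit1, members chosen after their values were seen, are shown to give the letters behind this background, each 5′ to 3′ on the strand of the gene from 250 bases before to 50 bases after the start site (RefSeq, GRCm38.p6), with the motif in capitals.
Isg15 (chr4:156200769-156201068, minus strand): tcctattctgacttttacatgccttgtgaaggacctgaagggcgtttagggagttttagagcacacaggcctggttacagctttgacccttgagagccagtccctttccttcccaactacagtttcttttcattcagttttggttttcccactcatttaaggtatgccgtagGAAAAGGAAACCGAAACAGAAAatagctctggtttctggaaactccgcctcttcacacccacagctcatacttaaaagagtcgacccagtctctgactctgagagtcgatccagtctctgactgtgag
Ifit1 (chr19:34640639-34640938, plus strand): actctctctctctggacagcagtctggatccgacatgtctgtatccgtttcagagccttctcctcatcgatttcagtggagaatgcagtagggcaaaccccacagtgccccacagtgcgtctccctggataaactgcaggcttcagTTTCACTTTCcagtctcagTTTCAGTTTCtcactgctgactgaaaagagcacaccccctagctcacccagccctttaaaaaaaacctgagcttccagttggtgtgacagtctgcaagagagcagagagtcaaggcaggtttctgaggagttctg

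The capitals begin 78 bases before the start in Isg15, where 3 overlapping GAAA repeats are matched. In Ifit1 the repeat lies on the other strand, in copies that begin 104 and 85 bases before the start. Searched on both strands, the GAAA repeat is in 1131 of 32851 annotated promoters of this length (3.44%). The interferon-stimulated list had 31 such promoters, which belong to 25 of its genes, and 17 of the 31 hold the repeat (54.8%). Its other genes had no promoter in this count. A match describes the letters of the window and no more, and the windows of the DEGs Irf1, Oasl2, Cmpk2 and Rnf213 do not hold it.

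Irf1, a transcription factor that is itself induced by interferon and drives further targets, measured 183, 225, 165, 189 and 229.7 CPM on day 91 (in the order of mice 483, 484, 485, 488 and 490, kept below) and 348, 391, 379 and 479 CPM on day 8 (mice 526, 528, 529 and 530, likewise). By this probe, its most counted, each day 8 library was above each day 91 library, and Irf1 was 2.01-fold lower at day 91 (log2 fold change -1.01 ± 0.25 SE, adjusted p = 0.0655). Its other probes did not pass and went in different directions. One had a log2 fold change of -0.54 (adjusted p = 0.358). The least counted, with means of 7.25 CPM on day 91 and 2.02 CPM on day 8, had 1.86 (adjusted p = 0.336). Without mice 484 and 485 the called probe had a log2 fold change of -1.01 with an adjusted p of 0.17. Cmpk2, a mitochondrial nucleotide kinase, fell from 42.3, 40.2, 59.5 and 117 CPM to 9.82, 18.9, 24.5, 12.9 and 11.8 CPM, with no overlap and a 4.16-fold difference (adjusted p = 0.0553). Parp14, an ADP-ribosyltransferase, was at 285, 259, 170.0 and 329.7 CPM on day 8 and at 123, 132, 95.7, 121 and 121 CPM on day 91, again with no overlap (2.20-fold lower, adjusted p = 0.061). Rnf213, a large ubiquitin ligase, was 2.87-fold lower (adjusted p = 0.0596) and Oasl2, of the oligoadenylate synthetase family, 3.25-fold lower (adjusted p = 0.093). For Oasl2 the groups overlapped, since mouse 526 had 90.1 CPM and mouse 484 had 93.6 CPM.

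Isg15, a ubiquitin-like protein that is attached to other proteins, measured 165, 204, 255 and 601 CPM on day 8 and 81.5, 89.2, 79.5, 39.6 and 83.4 CPM on day 91. The groups did not overlap, but the log2 fold change of -2.04 ± 0.56 (SE) missed the threshold (adjusted p = 0.138). Ifit1, which binds foreign RNA ends, had 56.9 to 80.6 CPM on day 8 and 0.659 to 25.1 CPM on day 91 (adjusted p = 0.266). Mouse 530 was the highest day 8 library for Irf1, Cmpk2, Oasl2, Parp14, Rnf213 and Isg15, and the summed level of the list was 4626 CPM in it, 1686 to 2605 CPM in the other 3 of day 8 and 1192 to 1811 CPM on day 91. Leaving out mouse 530 kept the direction of Irf1, Parp14, Cmpk2, Oasl2 and Rnf213 and ended each call, with adjusted p of 0.256, 0.28 and, for the last 3, 0.414. Other libraries whose omission ended a call were mice 483, 485 and 488 for Irf1 (adjusted p = 0.104 to 0.124), 483, 488 and 490 for Cmpk2 (0.128 to 0.175), 526, 485 and 490 for Parp14 (0.106 to 0.12), 528, 485, 488 and 490 for Rnf213 (0.112 to 0.119) and 528, 483, 485, 488 and 490 for Oasl2 (0.104 to 0.217). No member of the list was called without mice 484 and 485, where its median was -0.84, while DESeq2 called 6 lower. In the untreated villus the sums were 1502 to 3115 CPM on day 8 and 1725 to 3200 CPM on day 91, and 4 of the 5 day 91 libraries at 180 ppm lay below the lowest untreated library of day 91.

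Nlrp6 and Clec2h were lower at day 91. Nlrp6, a sensor of the epithelium that assembles an inflammasome, measured 316, 449, 402 and 456 CPM on day 8 and 224, 152, 154, 199 and 160.4 CPM on day 91, with no overlap (2.28-fold lower, adjusted p = 0.0152). Clec2h, a C-type lectin-like surface protein, was 2.77-fold lower by the probe that was called (adjusted p = 0.0202), with 113 CPM in mouse 483 and 35.9 to 56.6 CPM in the other day 91 libraries against 101 to 195 CPM on day 8. The probe of Clec2h with the highest count gave a log2 fold change of -0.80 and an adjusted p of 0.302. Without mice 484 and 485 neither gene was called (adjusted p = 0.142 for Nlrp6 and 0.187 for Clec2h). In the list of epithelial defence genes, Nlrp6 was the DEG among 32 tested, 3 members were higher and 3 lower at an unadjusted p under 0.05, and the median was 0. Reg3g, a C-type lectin that kills bacteria and was chosen after its values were seen, had 258, 351, 69.2 and 103 CPM on day 8 and 57.5, 10.5, 3.46, 17.5 and 3.38 CPM on day 91 (adjusted p = 0.146). In the untreated villus Reg3g fell as well, from a mean of 106 CPM on day 8 to 10.4 CPM on day 91 (log2 fold change -3.31, adjusted p = 0.0942). Its day change at 180 ppm differed from the untreated one by a log2 difference of -0.08 ± 1.37 (SE).

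The mucosal pentraxins, soluble proteins of the pentraxin family, were both DEGs. Mptx1 measured 47.5, 40.7, 81.1 and 56.4 CPM on day 8 and 11.5, 8.15, 5.18, 2.64 and 15.2 CPM on day 91, without overlap (6.53-fold lower, log2 fold change -2.71 ± 0.52 SE, adjusted p = 0.00241). Mptx2, a product of Paneth cells, fell from 6.22, 12.7, 19.3 and 53.9 CPM to 0.719, 0, 2.42, 0 and 1.41 CPM (26.0-fold, adjusted p = 0.0326), and lost its call without mouse 530 (adjusted p = 0.322), mouse 488 (0.111) or both mice 484 and 485 (0.133). The genes are close relatives, and reads could be shared between their probes. Of the 10 Paneth cell markers tested, 9 had a negative log2 fold change and none a positive one, with a median of -1.15, and Mptx2 was the DEG, while 2 were lower at an unadjusted p under 0.05. Their summed levels overlapped, at 1132, 1488, 3929 and 4400 CPM on day 8 and 731 to 2329 CPM on day 91. In the untreated villus the Paneth sums were 2451 to 20809 CPM on day 8 and 679 to 3467 CPM on day 91, and the median change of the list there was -1.97. Paneth cells sit at the crypt base, and how much crypt stayed on a villus section was not tested as a part of these values. In whole tissue, fewer cells of a type and less RNA per cell cannot be told apart, which holds for each cell type below.

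Genes of mitosis had lower values at day 91, without a call. Of 30 genes of mitosis, 29 had a negative log2 fold change, with a median of -0.93, and 9 were lower and 2 higher at an unadjusted p under 0.05, where a gene counts through any of its probes, as in the other lists. Neither form of edgeR called any of them, and DESeq2 called 1 lower. Their summed level was 590 to 1010 CPM on day 8 and 296 to 547 CPM on day 91 without overlap, and 192 to 1459 CPM and 83.9 to 731 CPM in the untreated villus, where the list's median change was -1.18. Genes of DNA replication had a median of -0.12 over 32 tested and replication-dependent histones -0.55 over 44, with no DEG in either list. For these, 4 replication genes were higher and 5 lower at an unadjusted p under 0.05, and 1 histone gene was higher and 3 lower, while the newer form of edgeR called 1 replication gene, lower, and DESeq2 called 1 histone gene, higher. Intestinal stem cell markers summed to 227 to 312 CPM on day 8 and 155 to 304 CPM on day 91, so those groups overlapped.

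The kappa segments Igkv8-30, Igkv8-28 and Igkv8-19 and the joining chain Jchain were higher at day 91. Igkv8-30, a variable segment of the kappa light chain, measured 391, 789, 1075, 911 and 1251 CPM on day 91 and 25.9, 96.1, 239 and 111 CPM on day 8. Igkv8-28 measured 186, 356, 501, 368 and 388 CPM against 42.3, 38.2, 88.2 and 63.4 CPM, and Igkv8-19 measured 98.2, 275, 238, 322 and 251 CPM against 23.3, 38.8, 78.9 and 91.9 CPM. None of the 3 segments overlapped between the days, and they were 7.49-fold (adjusted p = 0.000232), 6.21-fold (adjusted p = 0.000259) and 4.07-fold (adjusted p = 0.0326) higher. These segments are near-identical, so their values may rest in part on the same reads. Jchain, which joins IgA into dimers, rose 2.88-fold, from 368, 641, 1051 and 629 CPM to 1717, 1004, 2760.3, 1532 and 2657 CPM (adjusted p = 0.0886), and mouse 484 lay below mouse 529. Igkv8-19 lost its call without mouse 526, 528 or 488 (adjusted p = 0.111 to 0.256), and Jchain without mouse 526, 528, 530, 485, 488 or 490 (adjusted p = 0.111 to 0.391).

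The constant regions, chosen after their values were seen, did not pass the test between the days in the villus at 180 ppm. Igha, the heavy chain of IgA, had means of 5491 ± 1921 CPM (SD, n = 5) on day 91 and 2332 ± 537 CPM (SD, n = 4) on day 8 (adjusted p = 0.182), and Igkc, the kappa light chain, had 4575 ± 1161 and 2299 ± 663 CPM (adjusted p = 0.225). The day change of Igkc exceeded that in the untreated villus by a log2 difference of 1.78 ± 0.44 (SE, adjusted p = 0.0338). For Igha this difference was 0.59 ± 0.50 (SE, adjusted p = 0.636). In the crypt at 180 ppm both were called higher at day 91 (adjusted p = 0.00485 for Igkc and 0.0273 for Igha). Of 12 B and plasma cell markers tested, Jchain was the DEG, and 3 were higher and 1 lower at an unadjusted p under 0.05, with a median of 0.31. Summed over the list, day 91 libraries had 9782 to 17677 CPM and day 8 libraries 4604 to 7019 CPM, without overlap, where the untreated villus had 5130 to 11406 CPM on day 91 and 5931 to 10734 CPM on day 8. T cell and intraepithelial lymphocyte markers summed to 652 to 1089 CPM on day 91 and 1055 to 1276 CPM on day 8 at 180 ppm, and to 1669 to 3755 CPM in the untreated libraries of both days. Mast cell markers were 108 to 480 CPM and 225 to 654 CPM at 180 ppm, with Mcpt1, a mast cell protease chosen after its values were seen, at means of 225 and 263 CPM, against list sums of 0 to 66.6 CPM in the untreated villus. Neither of these lists had a DEG by edgeR or DESeq2, with 2 T cell markers higher and 3 lower, and 1 mast cell marker higher, at an unadjusted p under 0.05.

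The mucus gene Fcgbp, whose product is secreted with mucin by goblet cells, measured 2617, 1970.5, 3118, 1924 and 3582 CPM on day 91 and 777, 1464, 1315 and 926 CPM on day 8. The groups did not overlap and Fcgbp rose 2.36-fold (adjusted p = 0.0842), though its call was lost without mouse 526, 528, 529, 530, 483, 485 or 490 (adjusted p = 0.103 to 0.414). Muc2, the main intestinal mucin, Clca1, a secreted protease of mucus, and Zg16, a lectin of mucus, all chosen after their values were seen, had means of 258, 712 and 4467 CPM on day 91 and 131, 328 and 2243 CPM on day 8, but each overlapped between the days and missed the threshold (adjusted p = 0.182, 0.216 and 0.282). Of 8 goblet cell markers tested, 4 were higher and none lower at an unadjusted p under 0.05, Fcgbp was the DEG, and the median log2 fold change was 0.99. The summed level was 5381 to 10418 CPM on day 91 and 2905 to 5014 CPM on day 8, and 4467 to 5084 CPM and 2578 to 5784 CPM in the untreated villus. Without mice 484 and 485, no goblet marker and no B or plasma cell marker was called (Fcgbp adjusted p = 0.126, Jchain adjusted p = 0.136).

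**Figure D3:**
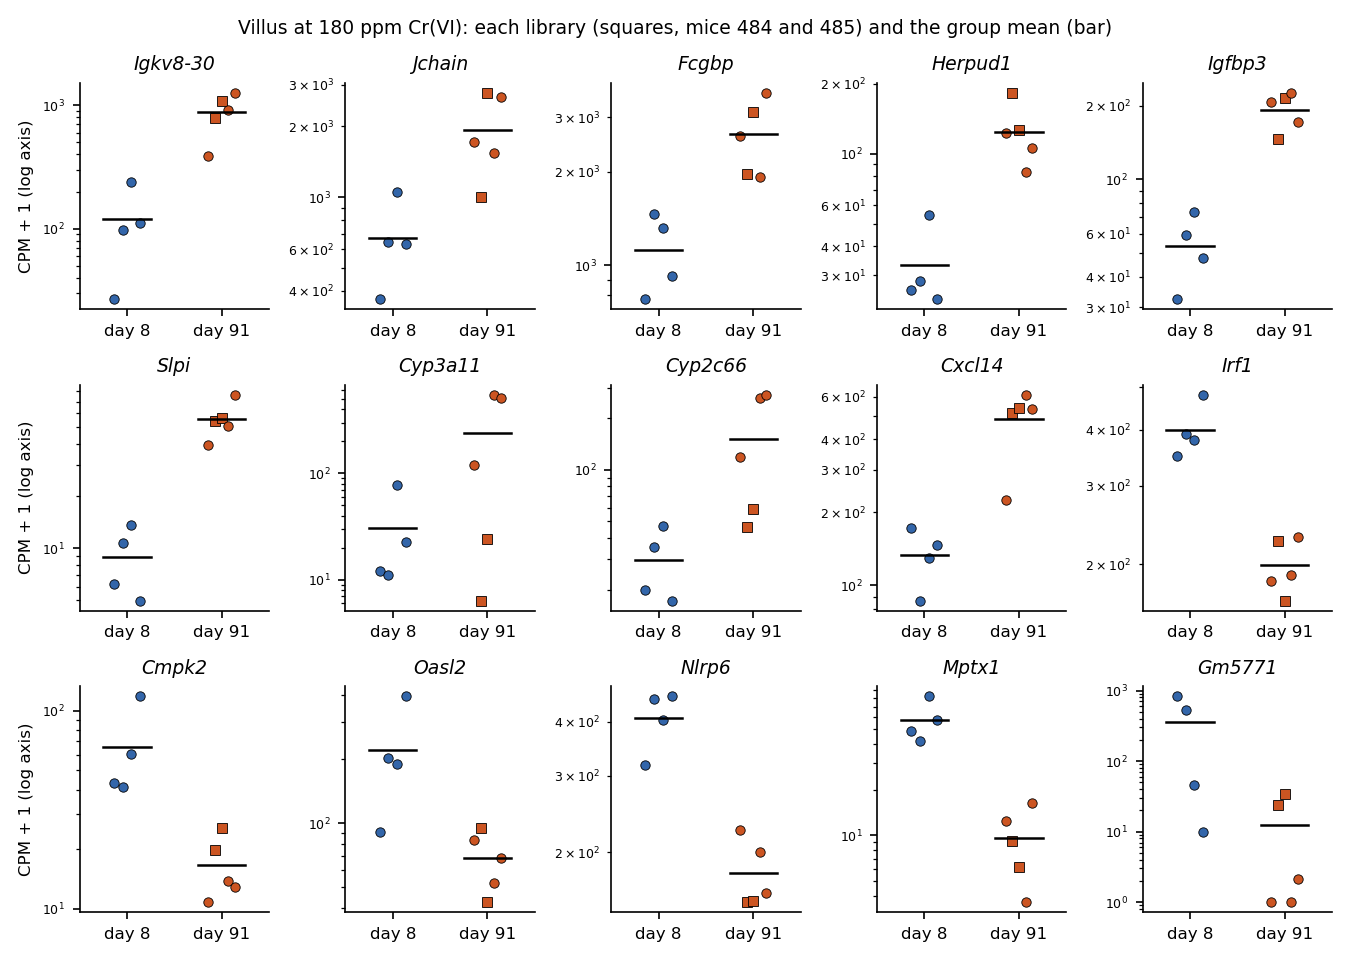
CPM of 15 genes (log axis) in each villus library at 180 ppm, with day 8 and day 91 side by side and squares for mice 484 and 485. Igkv8-30, Herpud1, Igfbp3 and Slpi separate the days completely upward and Irf1, Cmpk2, Nlrp6 and Mptx1 downward, while Cyp3a11 on day 91 spans 5.35 to 546 CPM.

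Herpud1, a membrane protein of the endoplasmic reticulum that takes part in the degradation of misfolded proteins, measured 121, 181, 126, 82.1 and 105 CPM on day 91 and 24.9, 27.4, 53.6 and 22.7 CPM on day 8. It was 3.84-fold higher without overlap (log2 fold change 1.94 ± 0.33 SE, adjusted p = 0.000199). Its untreated means were 122 and 142 CPM, so the day 91 level lay near the untreated one and the day 8 level below it. Among the 24 genes of the unfolded protein and amino acid responses tested, Herpud1 was the DEG, 3 were higher and 1 lower at an unadjusted p under 0.05, and the median was 0.29. Heat shock proteins had a median of 0.57 with 8 of 16 higher and none lower at an unadjusted p under 0.05, but none was a DEG, while the newer form of edgeR called 2 higher and DESeq2 called 3 higher. Hspa1b, an inducible HSP70 chosen after its values were seen, had 6.26 to 72.8 CPM on day 91, 7.54 CPM in mouse 526 and no count in the other 3 day 8 libraries (adjusted p = 0.136).

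Igfbp3, Cxcl14 and Slpi, which encode secreted proteins, were higher at day 91. Igfbp3, which binds and carries insulin-like growth factors, measured 205, 145, 213, 224 and 171 CPM on day 91 and 31.5, 58.4, 72.9 and 46.9 CPM on day 8, a 3.66-fold difference (log2 fold change 1.87 ± 0.32 SE, adjusted p = 0.000234). More than 1 of its probes was called. Cxcl14, a chemokine of epithelia, measured 224, 513, 538, 609 and 534 CPM against 172, 85.6, 128 and 146 CPM (3.64-fold, adjusted p = 0.00116), with mouse 483 closest to the day 8 range. Slpi, a secreted inhibitor of neutrophil proteases, rose 6.87-fold from 5.24, 9.69, 12.6 and 3.98 CPM to 38.1, 53.3, 54.9, 49.4 and 75.5 CPM (adjusted p = 0.0152). None of the 3 genes overlapped between the days, and of the 3 only Slpi lost its call with a library left out, mouse 526 (adjusted p = 0.114) or mouse 530 (0.176). In the untreated villus their means were 126 and 178 CPM for Igfbp3, 183 and 157 CPM for Cxcl14 and 22.3 and 16.4 CPM for Slpi on days 91 and 8.

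The P450 genes Cyp3a11, Cyp2c66 and Cyp3a41b were DEGs, higher at day 91 on average but not in each mouse. Cyp3a11, a P450 that oxidises many drugs and steroids, measured 119, 5.35, 23.2, 546 and 506 CPM on day 91 and 11.1, 9.97, 75.9 and 21.8 CPM on day 8 (8.11-fold, log2 fold change 3.02 ± 0.71 SE, adjusted p = 0.0406). Cyp2c66, a P450 of the 2c family, measured 118, 45.4, 58.4, 261 and 273 CPM against 19.0, 34.3, 46.1 and 16.2 CPM (5.23-fold, adjusted p = 0.0134). Mice 484 and 485, the libraries with the most acinar transcripts, were the lowest of day 91 for both. For Cyp3a11, mouse 484 lay below each day 8 library and mouse 485 lay within their range. For Cyp2c66, mouse 484 lay within the day 8 range. Cyp3a11 lost its call without mouse 526, 528, 530, 488 or 490 (adjusted p = 0.18 to 0.229) and Cyp2c66 without mouse 526, 530 or 490 (adjusted p = 0.11 to 0.161). Cyp3a41b, which is nearly identical to its neighbours in the 3a cluster and may share their reads, was 7.56-fold higher (adjusted p = 0.0655), again with mice 484 and 485 lowest. It lost its call without mouse 526, 528, 488 or 490 (adjusted p = 0.232 to 0.307). The list of P450 genes of families 1 to 4 took symbols that end in a digit and so did not hold Cyp3a41b. Over its 65 genes, 2 of which were DEGs, 16 were higher (24.6%) and 1 lower (1.54%) at an unadjusted p under 0.05, against 12.2% and 6.77% of all genes. The median was 0.63, with 36 positive and 18 negative changes. This list also held 18 members without a count in any of the 9 libraries, and the fold of a gene near the floor rests on few counts. Without mice 484 and 485, 5 P450 genes of this list were called higher and the median was 0.

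Hsd17b11, a dehydrogenase of steroids and lipid droplets, measured 963, 469, 951, 2554 and 2346 CPM on day 91 and 385, 494, 457 and 562 CPM on day 8 by the probe that was called (3.07-fold, adjusted p = 0.0216). Its probe with the highest count gave a log2 fold change of 0.96 and an adjusted p of 0.241. Hadhb, a subunit of the trifunctional protein of fatty acid oxidation, was 2.21-fold higher without overlap, at 87.2, 57.7, 44.6, 61.6 and 101 CPM against 24.6, 38.5, 36.1 and 28.5 CPM (adjusted p = 0.0842). It was the DEG among 27 genes of fatty acid oxidation and ketogenesis, of which 24 had a positive log2 fold change, 8 were higher and none lower at an unadjusted p under 0.05, and the median was 0.42. Iyd, which removes iodine from tyrosine, rose 2.71-fold (adjusted p = 0.0655) and Gde1, a glycerophosphodiester phosphodiesterase, 2.19-fold (adjusted p = 0.0462). Mouse 484 was the lowest day 91 library for Hsd17b11, Iyd and Gde1, and its summed enterocyte markers were 40445 CPM against 55761 CPM in mouse 485, 86455 to 106930 CPM in the other 3 of day 91, and 33621 to 68893 CPM on day 8. The part that enterocyte content had in these values was not tested. Hsd17b11 lost its call without mouse 526, 488 or 490 (adjusted p = 0.163 to 0.192), and Hadhb without mouse 526, 528, 529, 530, 483, 488 or 490 (adjusted p = 0.112 to 0.414). Iyd did so without mouse 528, 529, 530, 485, 488 or 490 (adjusted p = 0.158 to 0.414), and Gde1 without mouse 526, 528, 530, 488 or 490 (adjusted p = 0.146 to 0.361).

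Matrix, antigen presentation and phagocyte genes added single DEGs. Col6a4, a collagen VI chain, measured 75.5, 122, 109.9, 91.6 and 105 CPM on day 91 and 33.4, 24.1, 48.7 and 42.6 CPM on day 8 (2.71-fold, adjusted p = 0.0511). It was the DEG among 58 collagen and matrix genes, of which 13 were higher and 3 lower at an unadjusted p under 0.05, with a median of 0.53. Itga1, the alpha chain of a collagen receptor, rose 8.64-fold from 0.655, 1.66, 2.60 and 3.98 CPM to 17.3, 34.7, 10.7, 20.8 and 13.8 CPM (adjusted p = 0.0326). H2-DMb1, which loads peptides on MHC class II, measured 21.6, 28.2, 36.3, 31.6 and 31.0 CPM against 5.24, 3.32, 10.4 and 2.14 CPM (5.66-fold, adjusted p = 0.0888), and was the DEG among 26 antigen presentation genes, with 6 higher and 4 lower at an unadjusted p under 0.05 and a median of 0.01, while DESeq2 called 3 higher and 1 lower. Mpeg1, a pore-forming protein of macrophages, rose 1.89-fold (adjusted p = 0.0718) and Psap, the precursor of the lysosomal saposins, 1.97-fold (adjusted p = 0.0462). The 11 macrophage and dendritic markers had a median of 0.60, 10 positive changes and no DEG by edgeR or DESeq2, with 1 higher at an unadjusted p under 0.05, and summed to 243 to 507 CPM on day 91 and 183 to 400 CPM on day 8. Col6a4, H2-DMb1, Mpeg1 and Psap were not called without mice 484 and 485 (adjusted p = 0.187, 0.172, 0.327 and 0.178), and Itga1 was not called without mouse 526 (0.216) or mouse 528 (0.151). With 1 library left out, Col6a4 lost its call without mouse 526, 528, 530, 484, 485 or 490 (adjusted p = 0.106 to 0.285), H2-DMb1 without any but 529 or 483 (adjusted p = 0.106 to 0.414), Mpeg1 without any but 529 or 483 (0.106 to 0.391) and Psap without mouse 526, 528, 485, 488 or 490 (0.105 to 0.371).

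Among regulators of transcription, 1 gene tied to the clock was a DEG. Bhlhe40, a repressor tied to the circadian clock, measured 318, 327, 411, 342 and 435 CPM on day 91 and 235, 154, 150.3 and 142 CPM on day 8, without overlap (2.15-fold, adjusted p = 0.0791). The call was lost without mice 484 and 485 (adjusted p = 0.153) and without mouse 526, 528, 529, 530, 485, 488 or 490 (adjusted p = 0.103 to 0.414). In the list of 19 clock genes it was the DEG, with 5 higher and 3 lower at an unadjusted p under 0.05 and a median of 0.58. Cry1, a repressor of the clock, had 14.1 to 50.4 CPM on day 91 and 0 to 7.75 CPM on day 8 (adjusted p = 0.22), and Dbp and Nr1d1, which peak in another phase of the day, had lower means at day 91, at 8.64 against 30.5 CPM and 4.75 against 14.4 CPM (adjusted p = 0.306 and 0.276). The time of day of the necropsies was not given in the sources used here. Immediate early genes had a median of 0.86, with 7 of 21 higher and none lower at an unadjusted p under 0.05, no DEG and 3 higher by both DESeq2 and the newer form of edgeR, and glucocorticoid-responsive genes 1.03, with 5 of 12 higher, no DEG and 1 higher by both. Jun measured 61.1, 94.5, 38.0, 93.6 and 78.1 CPM on day 91 and 22.9, 26.9, 24.2 and 29.7 CPM on day 8, without overlap, and missed the threshold (adjusted p = 0.117). These 4 genes were chosen after their values were seen.

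**Figure D4:**
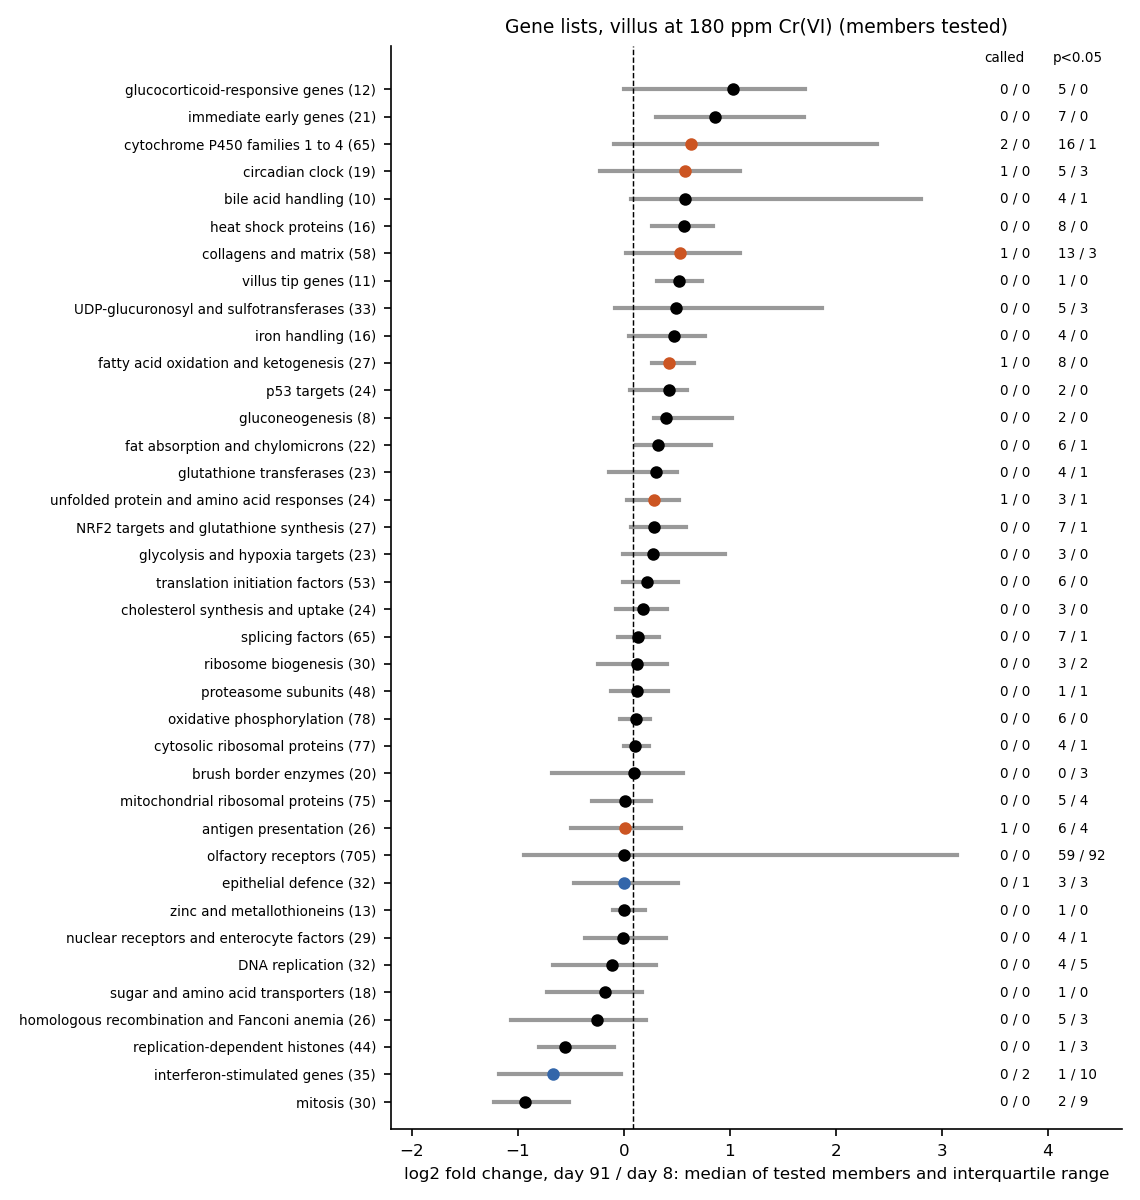
Median and interquartile range of the log2 fold change of day 91 against day 8 for 38 gene lists (points and bars), with the number of members higher and lower among DEGs and at an unadjusted p under 0.05. The medians run from -0.93 for mitosis and -0.66 for interferon-stimulated genes to 0.86 for immediate early genes and 1.03 for glucocorticoid-responsive genes, against 0.09 for all genes.

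Of the genes named in the study for the villus or for DNA damage, those given here did not pass the test. Hif1a, the hypoxia-inducible factor, had means of 292 and 216 CPM (adjusted p = 0.513), and Duox2, an oxidase that makes hydrogen peroxide at the epithelial surface, 4.61 ± 5.50 and 18.9 ± 8.92 CPM (SD, n = 5 and 4, adjusted p = 0.551). Trp53, Cdkn1a and Gadd45a of the p53 response had log2 fold changes of 0.28 ± 0.24, 0.40 ± 0.41 and 0.39 ± 0.27 (SE), with adjusted p of 0.709, 0.789 and 0.539. Fanci, Rpa1, Rpa3, Ctnnd1, Klf4 and Vil1 had log2 fold changes between -0.47 and 0.07 and adjusted p of 0.41 or more. The p53 target list had a median of 0.42 over 24 genes, with 2 higher and none lower at an unadjusted p under 0.05 and no DEG by edgeR or DESeq2. Homologous recombination and Fanconi anemia genes had a median of -0.25 over 26, with 5 higher and 3 lower, no DEG and 1 lower by both DESeq2 and the newer form of edgeR, and the 27 targets of NRF2, the regulator of the oxidative stress response, had 0.28, with 7 higher and 1 lower, no DEG and 1 higher by DESeq2.

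The largest fitted changes belonged to genes without a count in 1 group, for which a fold can be given only as a bound against 3 counts in each library, about 0.962 CPM on day 8 and 0.858 CPM on day 91, and this bound covers counting error only. Dtx3, a ubiquitin ligase of the Deltex family, measured 19.6, 13.3, 12.8, 22.4 and 9.30 CPM on day 91 and had no count in the 4 day 8 libraries, so it was at least 16.1-fold higher (adjusted p = 9.91e-07). Untreated villi had mean levels of 20.4 and 10.9 CPM on days 91 and 8. The other 11 such genes, Acta1, Chst12, Creld1, Csf1, Itga8, Klhl11, Nos1ap, Synj1, Xrcc5, Zbtb43 and Znrf3, had means of 3.39 to 7.56 CPM on day 91 and were at least 3.52-fold to 7.86-fold higher. Znrf3, which removes Wnt receptors from the cell surface, is among the stem cell markers and was at 6.71, 8.61, 8.29, 0 and 7.33 CPM on day 91, and Xrcc5 is a subunit of the Ku complex of DNA end joining. For Acta1, Csf1 and Synj1 the probe that was called was not the one with the highest count, and that other probe gave log2 fold changes of -0.11, -0.07 and -0.10. Tcrg-C4, a constant segment of the gamma T cell receptor, was the reverse, with no count on day 91 and 5.90, 0, 6.70 and 6.74 CPM on day 8, at least 5.64-fold lower (adjusted p = 0.0326).

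Transcripts named Gm5771 and Gm2663, which are trypsinogen-like, were lower at day 91. Gm5771 had 828, 523, 45.4 and 8.89 CPM on day 8 and 0, 22.8, 33.2, 0 and 1.13 CPM on day 91 (adjusted p = 0.0287), and Gm2663 had 307, 271, 48.0 and 16.9 CPM against 0, 47.5, 6.57, 0 and 0.282 CPM (adjusted p = 0.0612). Both overlapped between the days, both follow the acinar sums within each day in that mice 526 and 528 and mice 484 and 485 were high, and trypsinogen genes are alike enough to share reads. Over the 17 acinar markers the median log2 fold change was 1.88 with all 17 positive, and without mice 484 and 485 it was -3.43. In the crypts at 180 ppm, of the same mice and on day 8 also of mouse 527, the means of Gm5771 were 1837 CPM on day 8 and 5.25 CPM on day 91.

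The 33 higher DEGs with a count on day 8 were higher by 1.84-fold to 12.5-fold. Ifrd1, a stress-responsive regulator of transcription, measured 330.4, 306, 387, 584 and 529.8 CPM against 189, 129, 205 and 163 CPM (2.49-fold, adjusted p = 0.0842), and Ccnl1, a cyclin that acts in splicing, measured 269, 139, 493, 429.8 and 525 CPM against 94.0, 151, 170.4 and 162 CPM (2.57-fold, adjusted p = 0.031). Ifrd1 did not overlap between the days and Ccnl1 did, through mouse 484. Ecm1, a secreted matrix protein, rose 2.47-fold (adjusted p = 0.0472), Ghitm, of the inner mitochondrial membrane, 2.33-fold (adjusted p = 0.061) and Tmem59, of the endosomal system, 2.06-fold (adjusted p = 0.0888). Ecm1 lost its call without mouse 528, 530, 484, 485 or 490 (adjusted p = 0.114 to 0.414), Ghitm without mouse 526, 529, 530, 483 or 490 (0.111 to 0.36), Tmem59 without any 1 library but that of mouse 484 (0.101 to 0.391), Ifrd1 without any but 483 or 484 (0.102 to 0.383) and Ccnl1 without any but 529, 483 or 484 (0.104 to 0.252). C1rb, a complement protease, had 3.83 to 28.7 CPM on day 91 and counts in mouse 529 alone on day 8, at 4.46 CPM (adjusted p = 0.0628, and 0.102 to 0.387 without mouse 526, 528, 530, 488 or 490). Cstf2t, a factor of mRNA cleavage and polyadenylation, was the most precise of the lower genes, at 263, 368, 332 and 385 CPM on day 8 and 155, 122, 214, 170.4 and 197 CPM on day 91, without overlap (1.96-fold lower, log2 fold change -0.97 ± 0.18 SE, adjusted p = 0.0018).

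Untreated mice, which drank tap water for the same times, were compared between the days in the same fit. In their villus (4 libraries on day 91 with totals of 1667014 to 2678299, 5 on day 8 with 2405384 to 4054136), 590 genes (3.1%) differed between the days, 106 higher and 485 lower at day 91 with 1 gene in both through different probes, and the median over all genes was -0.20. None of the 58 DEGs at 180 ppm was called in the same direction there, and 1 of the 45 higher genes was called lower. The difference between the day changes at 180 ppm and without Cr(VI) was tested as a contrast of the same fit: 757 genes passed (3.98%), 628 in the higher direction (3.3%) and 130 in the lower (0.683%), with a median over all genes of 0.48. That median fell to 0.20 with DESeq2's size factors, where 279 genes were higher and 117 lower. The count moved with single libraries, to 59 higher and 7 lower genes without mouse 526 of day 8 and to 210 and 29 without mouse 485 of day 91. It was 157 and 9 without both mice 484 and 485.

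Igkv8-28 had means of 116 and 224 CPM in the untreated villus on days 91 and 8, so that its day change at 180 ppm exceeded the untreated one by a log2 difference of 3.58 ± 0.62 (SE, adjusted p = 0.000658). For Igkv8-30 the difference was 3.37 ± 0.66 (adjusted p = 0.00298), for Igfbp3 2.37 ± 0.44 (adjusted p = 0.00127), for Herpud1 2.16 ± 0.44 (adjusted p = 0.00573) and for Jchain 2.19 ± 0.55 (adjusted p = 0.0376). All of these lie above the median shift of 0.48. Irf1 differed in the other direction, by -1.16 ± 0.36 (adjusted p = 0.0825), with untreated means of 765 and 692 CPM, and Mptx1 did so by -2.39 ± 0.72 (adjusted p = 0.0767). With only the groups of the contrast in the fit, 7 genes passed in the higher direction and none in the lower (edgeR, 259 lower at an unadjusted p under 0.05, against 176 called lower by DESeq2), so the calls of Irf1 and Mptx1 ended, as did that of Igfbp3 (adjusted p = 0.147), while Igkv8-28 still passed. For Nlrp6 the test of the difference was not passed (-0.42 ± 0.36, adjusted p = 0.644), and its untreated means were 259 and 443 CPM on days 91 and 8. Nor was it passed for Cyp3a11 (2.21 ± 0.92, adjusted p = 0.172), Cyp2c66 (1.48 ± 0.67, adjusted p = 0.215) or Hadhb (0.57 ± 0.41, adjusted p = 0.526), whose untreated day 91 means of 744, 217 and 79.5 CPM were above those of day 8, at 425, 116 and 53.1 CPM. Chordc1, a co-chaperone of HSP90, was no DEG between the days at 180 ppm, at 368 and 192 CPM (adjusted p = 0.139), but fell from 249 to 115 CPM in the untreated villus, and the difference was 2.05 ± 0.37 (adjusted p = 0.000819, and 0.18 with only the groups of the contrast). Dtx3, Mss51 and Robo1 completed the genes with the smallest p, and their fitted differences rest on groups with no count: on day 91 the untreated villus had none of Mss51 and Robo1, with 16.6 and 11.1 CPM on day 8.

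Crypts were compared between the days at 180 ppm in the same mice and, on day 8, in mouse 527, which had no villus library. They gave 145 DEGs (0.762%), 121 higher and 24 lower. Of the 45 higher DEGs of the villus, 15 were also higher in the crypt (33.3% of 45 and 12.4% of 121). Of the 13 lower ones 6 were also lower (46.2% of 13 and 25% of 24), in libraries that share their mice but for mouse 527. Igkv8-30 (log2 fold change 2.48 in the crypt), Jchain (1.77), Fcgbp (1.58), Cxcl14 (2.10), Cyp3a11 (4.39), Bhlhe40 (1.65) and Cstf2t (-0.94) were among them, while Igfbp3 (0.62, adjusted p = 0.397), Nlrp6 (-0.31, adjusted p = 0.717) and Itga1 (-0.09, adjusted p = 1) were not called in the crypt. The test of the difference between the compartments passed for 1 gene of 19020 (0.00526%), Dtx3, which had means of 9.11 and 9.30 CPM in the crypt on days 91 and 8. With the mouse as a replicate block, which pairs the villus and crypt of each animal, no gene was called in either direction (edgeR, 530 higher and 276 lower at an unadjusted p under 0.05), and Dtx3 had an adjusted p of 0.265. DESeq2 without the block called 39 genes higher and 11 lower.

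At the other concentrations the day contrast rests on other mice. It gave 48 DEGs (0.252%) in mice given 0.1 ppm, 431 (2.27%) with 1.4 ppm, 1672 (8.79%) with 5 ppm, 977 (5.14%) with 20 ppm and 963 (5.06%) with 60 ppm. At 60 ppm, 16 of the 45 higher DEGs of 180 ppm were also higher (35.6% of 45 and 1.93% of the 830 higher there) and 6 of the 13 lower ones were also lower (46.2% of 13 and 4.44% of 135), and at 20 ppm these counts were 14 and 3. At 5 ppm they were 8 and 0 with 1 gene of each direction called the opposite way, at 1.4 ppm 3 and 1, and at 0.1 ppm 0 and 2. Genes called higher at both 20 and 60 ppm included Igkv8-28, Fcgbp, Jchain, Cxcl14, Bhlhe40, Hsd17b11, Hadhb and Tmem59, and Cstf2t and both mucosal pentraxins were called lower at both. Irf1 was called lower at 60 ppm (log2 fold change -0.96, adjusted p = 0.0165) and had 0.06 at 20 ppm (adjusted p = 0.977), where the median of the interferon-stimulated list was 0.87 against 0.37 for all genes. Igfbp3 was called at 180 ppm alone among these 3 concentrations, with 0.71 at 60 ppm and 0.37 at 20 ppm (adjusted p = 0.175 and 0.518), and Nlrp6 likewise, with -0.07 and 0.21 (adjusted p = 0.965 and 0.706); the differences between concentrations were not tested.

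**Figure D5:**
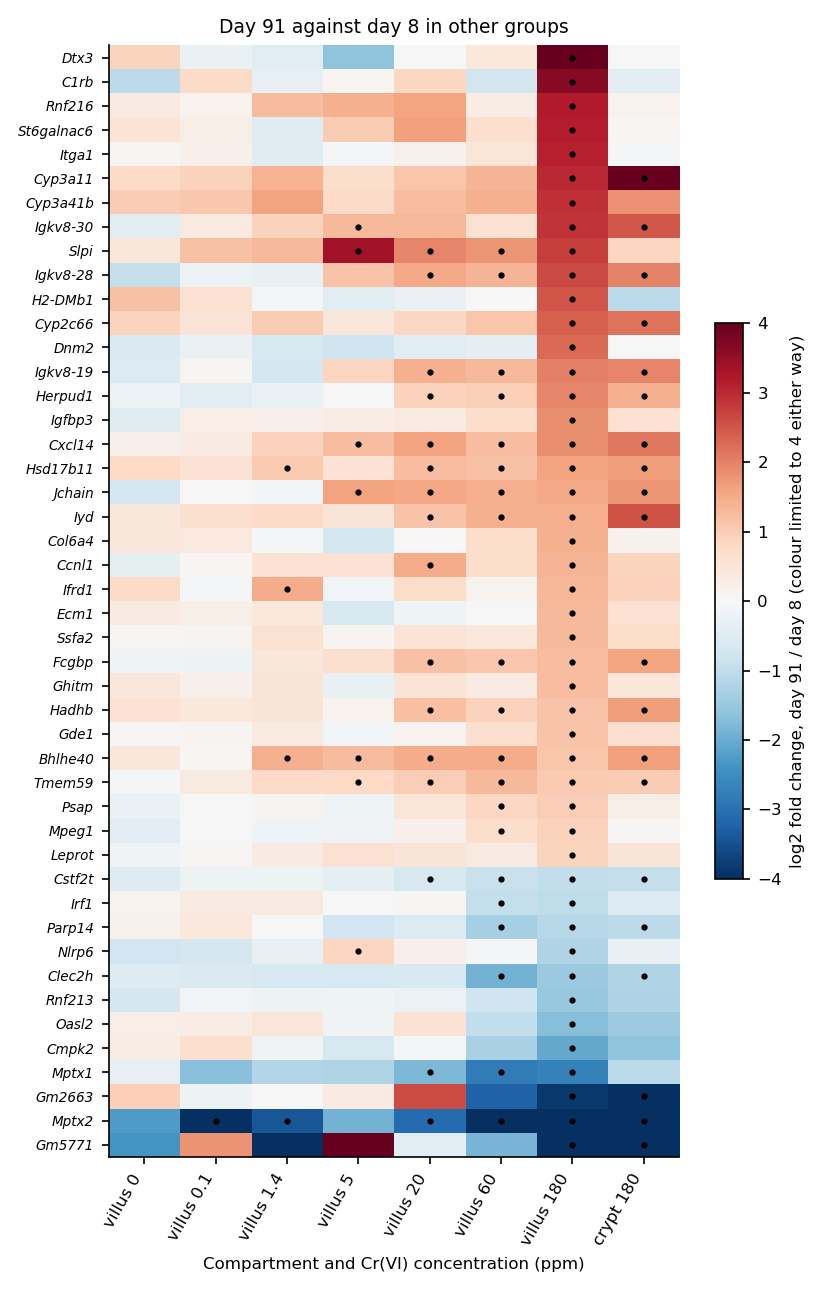
Log2 fold change of day 91 against day 8 (colour) for the 46 DEGs with a mean of at least 10 CPM (rows) in the villus at 7 concentrations and in the crypt at 180 ppm (columns), with a dot where the gene was called in that column. Beside the 180 ppm villus, dots are most frequent at 60 ppm and in the crypt at 180 ppm.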

How the data were processed

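TempO-Seq libraries were made from villus and crypt scraped off formalin-fixed duodenum. The authors counted reads per probe from the FASTQ files, and the deposited values are raw counts, with no normalization; the submitters' processing notes name bcl2fastq 2.17.1.14 and Bowtie (no version), and the genome build of the probes was not given in the sources used here. Each library was grouped by its label, whose mouse number pairs the villus with the crypt of 1 animal. The deposited columns do not hold every designed library, so the villus at 180 ppm had 4 libraries on day 8 and 5 on day 91. Probes measure short stretches of a transcript, and near-identical genes can share reads.

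Here, edgeR 4.0.16 (R 4.3.3) was fitted to all libraries in 28 groups, so that the spread was estimated over all groups, with TMM scaling, filterByExpr and a trended dispersion, in the quasi-likelihood form that is the installed default. Two-sided p-values were adjusted after Benjamini and Hochberg across all 26365 tested probes, at a threshold of 0.1. Unique genes of passing probes were counted, and elsewhere a gene was represented by its most counted probe. Where that probe was not called, values are of the called probe. CPM were scaled with the TMM factors. Replicates are mice. For the day contrast, p-values compare the 9 mice against a spread taken from all groups. In that spread, the villus and crypt of 1 mouse entered as separate libraries without a block. Differences of day changes were contrasts of the same fit. For the villus and crypt of 1 mouse the mouse was a block in an alternative fit, since same-numbered libraries come from the same animal. Alternatives were DESeq2 1.42.0, DESeq2's size factors, thinning to 1463938 counts, another edgeR form, a depth covariate, other filters, summed probes, the contrast's own groups and leaving out each library. Scripts were tested on simulated data. The members, gene lists and named genes were chosen with earlier results of these data known. Named are up to 12 higher and 12 lower DEGs with at least 10 CPM and groups that do not overlap, up to 4 DEGs per list (or its 2 most abundant members, left out where counts describe the list), up to 6 genes for each difference of day changes, and 12 genes named in the study, of which 1 is not reported here. Other DEGs, and the genes said so in the text, were chosen after their values were seen. Counting intervals and floors (3 counts) cover counting error only.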

Additional observations from a re-analysis of the deposited data

Results flagged for a closer look

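A library far from the rest of its group was sought with Dixon's ratio in the groups at 180 ppm, which chance meets in about 1 of 20 groups of normally distributed values. That rate need not hold for low counts. Where all other libraries of a group had 0, as for C1rb, St6galnac6, Hspa1b and the Brunner gland markers, any count in 1 library meets the ratio. The ratio was met by 18 of 154 groups over 77 genes and by 4 library measures. On day 8, mouse 526 stood apart in its scaling factor (1.17, others 1.03 to 1.05), its summed stem cell markers (226.7 CPM, others 301.7 to 311.9), Bhlhe40 (234.6 CPM) and Hspa1b (7.54 CPM, others 0). Mouse 528 stood apart in summed mast cell markers (653.8 CPM, others 225 to 267), Mcpt1 (494 CPM), St6galnac6 (4.43 CPM, others 0) and Tcrg-C4 (0 CPM). Mouse 529 stood apart in Brunner gland markers (0.744 CPM, others 0), C1rb (4.46 CPM, others 0), Herpud1 (53.6 CPM) and Cyp2b10 (70.7 CPM), and mouse 530 in Gde1 (89.8 CPM, others 115). On day 91, mouse 483 stood apart in Clec2h (113 CPM), Cxcl14 (224 CPM) and Reg3g (57.5 CPM), mouse 484 in Gm2663 (47.5 CPM) and Synj1 (16.8 CPM), and mouse 488 in Dnm2 (23.7 CPM), Itga8 (18.8 CPM), Znrf3 (0 CPM) and Isg15 (39.6 CPM).

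The day change at 180 ppm differed from that in the untreated villus, by the test of the difference, for Dtx3 (log2 difference 7.94), Igkv8-28 (3.58), Igfbp3 (2.37), Mss51 (8.29), Robo1 (9.84) and Chordc1 (2.05), and from that in the crypt for Dtx3 (8.87). The values of Dtx3, Mss51 and Robo1 depend on the prior count, since 1 of their groups had no count.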

How the results depend on the processing

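Main counts of DEGs between the days were 45 higher and 13 lower. They were 269 and 96 with DESeq2, 105 and 31 with the newer quasi-likelihood form, 83 and 24 with a mean count of at least 10, 28 higher without a filter, 25 higher with thinned counts, 8 and 5 with only the groups of the contrast, 26 lower with summed probes, and 7 lower without mice 484 and 485 (chosen after seeing the data). Leaving out 1 library gave 14 to 76 higher and 7 to 19 lower genes, with 19 higher without mouse 526, 76 without 529, 20 without 530, 22 without 488 and 14 without 490, and 7, 8 and 7 lower without 530, 488 and 490. Lists with a DEG numbered 12 of 56, and 34 with DESeq2, 23 with the newer form, 20 with the mean count, 7 without a filter, 3 with only the groups and 5 to 14 over libraries left out (5, 6 and 7 without mice 530, 488 and 490).

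Against the untreated villus, 628 higher and 130 lower became 279 higher with DESeq2's size factors, 230 and 26 thinned, 213 and 34 with the newer form, 286 and 34 with the mean count, 363 higher without a filter, 7 and 0 with only the groups (edgeR), 289 and 79 with summed probes, 157 and 9 without mice 484 and 485, and 59 to 897 and 7 to 168 with 1 library left out. The latter moved by over 1.5 times in at least 1 direction without untreated mice 46 (336 and 59), 47 (347 and 52), 48 (212 and 36), 49 (420 and 62), 3 (221 and 37), 5 (119 and 14) and 6 (313 and 69), and without mice 526 (59 and 7), 528 (322 and 80), 530 (301 and 68), 483 (434 and 84), 484 (444 and 85), 485 (210 and 29), 488 (391 and 53) and 490 (303 and 43). Against the crypt, 1 and 0 became 39 and 11 with DESeq2, 2 and 1 thinned, 3 and 2 with the mean count, 0 with the replicate block, and 1 to 9 and 0 to 2 with 1 library left out (without the crypt of mouse 527, 3 and 0, the crypt of 530, 1 and 1, and the villus of 526, 2 and 0, 528, 4 and 2, 529, 9 and 2, and 530, 3 and 1). The block was fitted for this contrast alone.

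Of the named genes, Acta1 reversed when probes were summed (log2 fold change -0.0302). No paired analysis was possible because the mice of days 8 and 91 are different animals, for the day contrast itself. The cause of these changes was not tested. At these depths a gene under about 1 CPM in a library rests on fewer than 3 counts or so, and levels below that were not detectable.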
